A study of Manihot esculenta with 9 samples.

Results

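The genes described here are the basic helix-loop-helix (bHLH) transcription factors of cassava, Manihot esculenta. A gene was a member when its description in the deposited table named the bHLH family, used the abbreviation bHLH, or named a phytochrome interacting factor; this is a rule that uses no expression value. This gave 170 members of 33033 genes in the table. The study sequenced leaf RNA of the transgenic lines HOE1 and HOE8, both of which overexpress the linker histone gene MeH1.2, and of wild-type (WT) plants. Each group had 3 libraries. All plants were seedlings 2 months old, grown from stem cuttings on MS medium in closed sterile bottles, and none was treated. Each construct group is a single transgenic line, the promoter of the transgene is not given in the sources used here, and 1 label numbers HOE8 as line 2 while its title says line 8. The labels do not say that the libraries of a group came from separate plants, so the spread behind the p-values below is that of these libraries and could be technical. No collection time or batch is given.

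A bHLH protein binds DNA through its basic region, usually at short palindromes called E-boxes, and its helix-loop-helix region joins it to a partner, so that most members act as dimers. In plants the family covers light signalling, jasmonate responses, pigment synthesis, stomatal and vascular development, iron supply and organ growth, and an atypical class that lacks the basic region ties up partners in dimers that do not bind DNA. Roles given below are those of the best match in Arabidopsis thaliana and were not tested in cassava. A gene is called after its match only as a label.

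Between 13272047 and 16378389 reads were counted per library, and on the CPM scale, on which counts are divided by the scaled library size, 3 reads equalled 0.183 to 0.226. The bHLH genes took 0.316% to 0.32% of reads in HOE1, 0.36% to 0.362% in HOE8 and 0.314% to 0.318% in WT. HOE8 library 1 stood apart from the other libraries of its line, as its median chi-square per gene against them was 1.98 and 2.21, while that between them was 0.782. The linker histone gene Manes.08G136300, counted with any reads of the transgene, averaged 4617 CPM in HOE1, 3345 CPM in HOE8 and 149 CPM in WT. The groups also differed in clock genes: Manes.01G239000, matching the morning factor LHY, averaged 8.62, 1252 and 5.33 CPM in HOE1, HOE8 and WT, and Manes.18G095000, matching the evening gene GI, averaged 466, 1.05 and 480 CPM. Leaf markers moved with the groups too, as the summed CPM of 17 senescence markers was 320 to 329 in HOE1, 230 to 260 in HOE8 and 1190 to 1223 in WT, and that of 6 shoot meristem markers was 30.1 to 32.1, 62.2 to 65.5 and 22.2 to 22.5. Of the 17 senescence markers, 7 in HOE1, 10 in HOE8 and 8 in WT had no read. Only 5 of them were tested, and these 5 were called lower than WT in both lines. The summed CPM of 2 mesophyll markers was 2279 to 2372 in HOE1, 15544 to 16620 in HOE8 and 747 to 787 in WT. That of 7 root markers, 3 of them without a read in each group, was 27.5 to 29.4 in HOE1, 32.7 to 38.4 in HOE8 and 15.6 to 15.7 in WT. All 6 shoot meristem markers were tested, with 5 higher and 1 lower than WT in each line. Of 3 tested root markers, 2 were higher and 1 lower in HOE1, and 2 were higher and 1 not called in HOE8. The part of the clock and of these markers in the results below was not tested. In such bulk libraries, fewer cells of a type and less RNA per cell cannot be told apart.

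Of the 170 members, 127 passed the filter on low counts and were tested. The other 43 did not pass it; 10 of these had no read in any library and none had more than 76 reads over the 9 libraries. Expressed per length of transcript, as FPKM, the family summed to 1710 ± 10.2 in HOE1, 2000 ± 40.4 in HOE8 and 1702 ± 13.8 in WT (SD, n = 3 each). The HOE8 libraries were above all others, and the HOE1 and WT sums differed by less than their spread on this scale. On the CPM scale the family summed to a mean of 3227 in HOE1, 3716 in HOE8 and 3037 in WT. The closeness of HOE1 and WT therefore depends on the scale. The FPKM values rest on unscaled library totals, whereas the CPM values rest on scaled library sizes. In the shares of raw reads given above, which use neither length nor scaling, HOE1 and WT were close as well. A level of at least 1 CPM was reached by 112 members in HOE1, 116 in HOE8 and 110 in WT, and the 10 highest members held 33.9%, 35.3% and 33.7% of the family's FPKM.

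The order at the top of the family differed between the groups on the FPKM scale. In HOE1 the leading members were Manes.06G167700, matching FBH3, at 76.3 ± 1.24 FPKM and Manes.16G113000, matching bHLH68, at 68.1 ± 3.41 FPKM. The latter was not separated from Manes.05G034700, matching EGL3, at 67.3 ± 0.624 FPKM in HOE1. In HOE8 the leading members were Manes.01G269700, matching PIF8, at 106 ± 2.31 FPKM and Manes.12G044000, matching PIF1, at 99.7 ± 19.4 FPKM, which were not separated beyond their spread. In WT they were Manes.16G113000 at 79.6 ± 2.9 FPKM and Manes.15G077000, matching ILR3, at 74.3 ± 4.27 FPKM, and the ranges of these means ± SD overlapped. The PIF8 match Manes.01G269700 alone thus held 5.32% of the family's FPKM in HOE8 and 1.15% in WT, with 2.61% in HOE1. The MYC2 match Manes.17G016000 was more even, at 62.3 ± 2.06, 69.7 ± 3.89 and 60.2 ± 0.928 FPKM in HOE1, HOE8 and WT.

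In HOE1 against WT, 53 of the 127 tested members were higher and 34 lower at an adjusted p below 0.05. That is 41.7% and 26.8% of tested members, beside 31.7% and 32.7% of all 23434 tested genes, of which 64.4% were called in either direction. In HOE8 against WT, 65 were higher and 33 lower, or 51.2% and 26%, beside 33.7% and 38.2% of all genes and 71.9% in either direction. In HOE8 against HOE1, 64 were higher and 35 lower, or 50.4% and 27.6%, beside 32.7% and 33.8% of all genes and 66.5% in either direction. The share of members called higher stood above the background in each comparison and the share called lower stood below it. The first 2 comparisons share the WT libraries, so their counts are not independent of each other. The counts given below for role groups and lists stand beside these same shares of all genes.

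The median log2 fold change of tested members was 0.19 in HOE1 against WT, 0.40 in HOE8 against WT and 0.41 in HOE8 against HOE1, beside −0.01, −0.05 and −0.01 over all tested genes. With scaling by library totals alone, the HOE1 median was 0.11 and the median of all genes −0.09. Members that were called and differed by at least 2-fold numbered 17 higher and 15 lower in HOE1 against WT, or 13.4% and 11.8%, beside 8.5% and 10.8% of all genes. They numbered 36 higher and 20 lower in HOE8 against WT, or 28.3% and 15.7%, beside 15.3% and 16.6%. In HOE8 against HOE1 they numbered 31 higher and 14 lower, or 24.4% and 11%, beside 13% and 12.7%. At this size the lower share was close to that of all genes in each comparison. The libraries of the groups did not overlap for 98 members in HOE1 against WT and for 99 in HOE8 against WT, or 77.2% and 78%, beside 73.3% and 73.7% of all genes. For HOE8 against HOE1 they did not overlap for 108 members, or 85%, beside 70.1%. Without HOE8 library 1, 66 members were higher and 34 lower in HOE8 against WT.

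**Figure D1:**
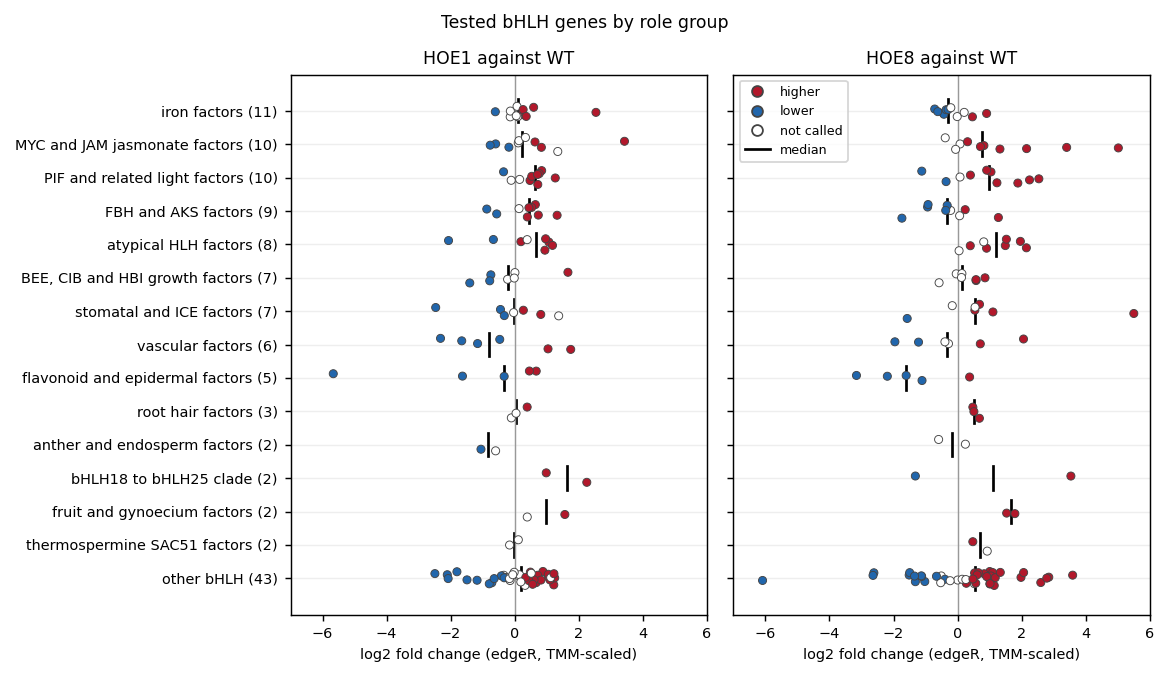
Log2 fold change of each of the 127 tested bHLH genes by role group, for HOE1 against WT (left) and HOE8 against WT (right). Each point is 1 gene, filled red where called higher and blue where called lower, open where not called; bars mark group medians and the number of tested genes stands in brackets. The light factors and the atypical HLH genes lie mostly to the right in both panels, while the iron and FBH genes lie to the left in HOE8.

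The phytochrome interacting factors (PIFs) accumulate in darkness or shade, are degraded after binding light-activated phytochrome, and in Arabidopsis promote elongation and hold back greening. All 10 genes of the PIF group, which here includes the related growth repressor SPT, were tested. In HOE1, 7 were higher than WT and 1 lower, and in HOE8, 7 were higher and 2 lower. Without HOE8 library 1, which shares the estimate of spread, 2 were lower in HOE1. Their median log2 fold changes were 0.62 and 0.98 (all genes −0.01 and −0.05).

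The largest differences in the PIF group were those of 1 PIF8 and 1 PIF1 match. Manes.01G269700 (chromosome 1, 34316886 to 34320941), matching PIF8, a factor that in Arabidopsis represses phytochrome A responses, had 84.4, 79.2 and 82.3 CPM in the HOE1 libraries, 200, 193 and 200 CPM in HOE8, and 34.4, 34.9 and 32.9 CPM in WT. The 3 groups did not overlap, with HOE8 highest and WT lowest. Its log2 fold change was 1.27 ± 0.051 in HOE1 against WT (SE, adjusted p = 6.5e-09), 2.54 ± 0.053 in HOE8 against WT (adjusted p = 1.2e-11) and 1.27 ± 0.05 in HOE8 against HOE1 (adjusted p = 2.5e-09). It overlaps Manes.01G269800 in the table, and reads of overlapping genes may not be separable. Manes.12G044000 (chromosome 12, 3698164 to 3699913), matching PIF1, which in Arabidopsis keeps seeds dormant and restrains chlorophyll synthesis in the dark, had 54.2, 50.2 and 51.6 CPM in HOE1, 107, 155 and 151 CPM in HOE8, and 31.3, 27.4 and 28.4 CPM in WT. HOE8 library 1 was the low one of its line but lay above every HOE1 and WT library. The log2 fold change was 0.84 ± 0.125 in HOE1 (adjusted p = 0.00014) and 2.25 ± 0.127 in HOE8 (adjusted p = 3.3e-08).

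A further PIF1 match, Manes.13G043000 (chromosome 13, 4706813 to 4716147), went the other way in HOE8. It had 91.4, 92.8 and 80.6 CPM in HOE1, 44.9, 54.6 and 48.7 CPM in HOE8, and 65.8, 65.7 and 58.6 CPM in WT, with no overlap. It was called higher in HOE1 (0.48 ± 0.084, adjusted p = 0.00047) and lower in HOE8 (−0.36 ± 0.085, adjusted p = 0.0028), and it overlaps Manes.13G043100.

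The 3 PIF3 matches each did something else. PIF3 in Arabidopsis acts with PIF1 on greening and with the hormone pathways on growth. Manes.05G008000 had 23.4, 23.9 and 23 CPM in HOE1, 54, 63.8 and 61.3 CPM in HOE8 and 17.6, 15.8 and 15.2 CPM in WT, and was called higher in HOE1 (0.53 ± 0.082, adjusted p = 0.00019) and HOE8 (1.88 ± 0.081, adjusted p = 3.5e-09). Manes.08G107100 had 58, 57.1 and 54 CPM in HOE1, 28.7, 35.5 and 34.8 CPM in HOE8 and 71.5, 68.2 and 75.3 CPM in WT, and was called lower in HOE1 (−0.35 ± 0.079, adjusted p = 0.0027) and HOE8 (−1.12 ± 0.082, adjusted p = 2.9e-07). In both genes the 3 groups were fully separated. Manes.09G181800, at 54.6 to 57.4, 62.5 to 64.6 and 60 to 61.5 CPM in HOE1, HOE8 and WT, was not called against WT in either line.

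The remaining PIF8 and SPT matches were called higher or not called. Manes.05G049900, a PIF8 match, had 54, 59.9 and 57.6 CPM in HOE1, 43.7, 43.7 and 45.5 CPM in HOE8 and 35.7, 32.8 and 32.3 CPM in WT, and here HOE1 was the highest group (0.77 ± 0.062 in HOE1, adjusted p = 1.2e-06; 0.40 ± 0.062 in HOE8, adjusted p = 0.00015). Manes.09G128700, also matching PIF8, stood at 2.82 to 4.46, 3.55 to 5.82 and 1.81 to 2.7 CPM in HOE1, HOE8 and WT, and its call in HOE1 (0.72 ± 0.249, adjusted p = 0.026) was lost when HOE1 library 2, HOE1 library 3 or WT library 2 was left out. In HOE8 it was higher by 1.04 ± 0.246 (adjusted p = 0.0028). The SPT match Manes.18G039600, with 1.62 to 1.97 CPM in HOE1, 3.45 to 4.19 in HOE8 and 1.29 to 1.94 in WT, was called in HOE8 (1.23 ± 0.187, adjusted p = 0.00013) and not in HOE1 (0.15 ± 0.206, adjusted p = 0.55). The other SPT match, Manes.12G104100, had 3.34 to 4.17 CPM in HOE1, 3.63 to 4.99 in HOE8 and 1.75 to 2.61 in WT and was higher in both lines (0.71 ± 0.196, adjusted p = 0.0082 in HOE1; 0.91 ± 0.196, adjusted p = 0.0015 in HOE8).

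**Figure D2:**
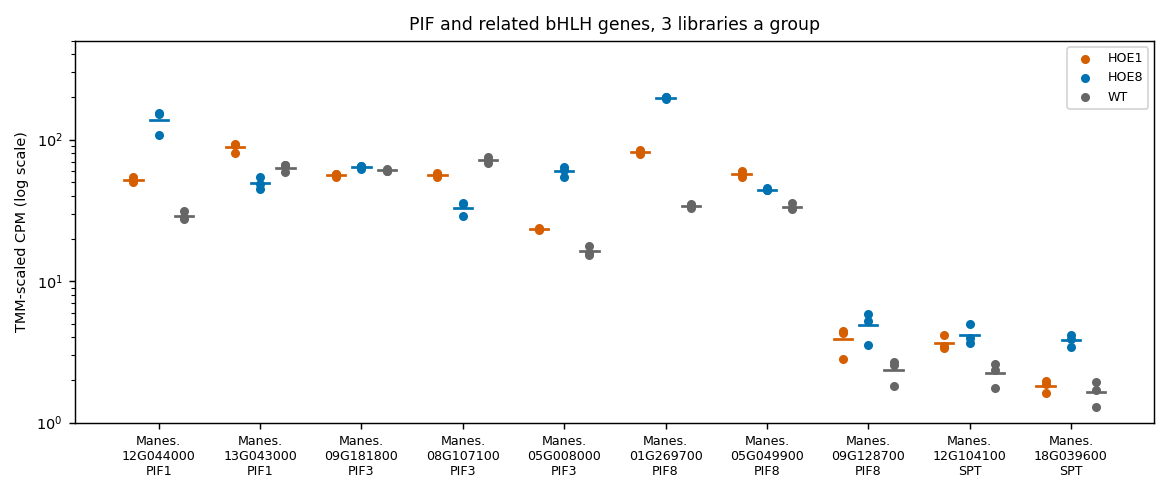
TMM-scaled CPM (log scale) of the 10 genes of the PIF group in each library; points are libraries and short bars group means of 3, in the order HOE1, HOE8, WT for every gene. The PIF8 match Manes.01G269700 and the PIF1 match Manes.12G044000 stand highest in HOE8, whereas Manes.13G043000 (PIF1) and Manes.08G107100 (PIF3) stand lower in HOE8 than in WT.

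Partners of the PIFs were read from a list of light signalling genes by Arabidopsis match. Of 13 tested, 5 were higher and 5 lower in HOE1 than in WT, and 8 were higher and 2 lower in HOE8. Manes.01G084500, matching the shade-induced PIF target ATHB2, had 5.65, 5.64 and 5.11 CPM in HOE1, 81.7, 73.1 and 68.5 CPM in HOE8 and 11.3, 13.1 and 11.4 CPM in WT, and was thus lowest in HOE1 (−1.13, adjusted p = 2.8e-06) and highest in HOE8 (2.64, adjusted p = 4.2e-10). Manes.16G120300, matching HY5, a factor that acts against the PIFs, had the same order, with means of 9.71, 46.4 and 17.3 CPM in HOE1, HOE8 and WT. Manes.03G205100, matching the photoreceptor PHYB, was lower in both lines (−0.67, adjusted p = 7.2e-05 in HOE1; −0.31, adjusted p = 0.01 in HOE8).

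The MYC factors carry the transcriptional response to jasmonate, and the JAM factors compete with them for the same promoters. Of 14 such genes 10 were tested: 3 were higher and 3 lower in HOE1 than in WT, and 7 were higher and none lower in HOE8. For the lower side in HOE8, edgeR gave 0 at an unadjusted p below 0.05 as well, and DESeq2 called 0. Manes.17G016000 (chromosome 17, 5657214 to 5660207), the most abundant MYC2 match, had 182, 193 and 193 CPM in HOE1, 202.2, 226 and 215 CPM in HOE8, and 169, 174 and 176 CPM in WT. The groups did not overlap, but the log2 fold changes were small, at 0.13 ± 0.054 in HOE1 (adjusted p = 0.053) and 0.31 ± 0.054 in HOE8 (adjusted p = 0.00035). The HOE1 difference was called by DESeq2, with RLE scaling, with a replicate block, in the fit of the 2 groups, and without HOE1 library 1 or HOE8 library 1 or 2.

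Larger differences were seen among lower MYC2 matches and the JAM genes. Manes.01G056200, another MYC2 match, had 3.32, 3.28 and 4.07 CPM in HOE1, 7.41, 9.85 and 9.46 CPM in HOE8 and 1.85, 2.07 and 2.05 CPM in WT, and was called higher in HOE1 (0.83 ± 0.177, adjusted p = 0.0017) and in HOE8 (2.15 ± 0.162, adjusted p = 3.7e-07). Manes.01G054300, the MYC2 match with the highest ratios, had 14 reads in all in HOE1, 38 in HOE8 and 1 in WT, a ratio of 14.7 (95% counting interval 2.23 to 621) in HOE1 and 45 (7.6 to 1824) in HOE8. Manes.01G245600, matching JAM2, had 11.8, 12.9 and 15.1 CPM in HOE1, 47.5, 50.9 and 52 CPM in HOE8 and 21.3, 20.2 and 18.6 CPM in WT. It was called lower in HOE1 (−0.60 ± 0.096, adjusted p = 0.00026) and higher in HOE8 (1.32 ± 0.091, adjusted p = 1.8e-07), without overlap. Manes.01G199900, matching JAM3, had 52.5, 54 and 57.5 CPM in HOE1, 90.4, 91.3 and 86.9 CPM in HOE8 and 50.8, 49.4 and 51.8 CPM in WT, and was called in HOE8 (0.82 ± 0.054, adjusted p = 1.1e-07) and not in HOE1 (0.11 ± 0.054, adjusted p = 0.092).

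Of 20 tested genes of the jasmonate receptor and repressor list, 5 were higher and 8 lower in HOE1 and 6 higher and 8 lower in HOE8. The repressors of MYC2 did not move as a block. Manes.03G042500, matching JAZ2, had 16, 16.6 and 16.5 CPM in HOE1, 1.44, 0.698 and 1.91 CPM in HOE8 and 31.1, 27.2 and 32.8 CPM in WT, and was called lower in HOE1 (−0.90, adjusted p = 0.00028) and HOE8 (−4.48, adjusted p = 4.8e-09). Manes.15G133000, matching JAZ3, had 57.2 to 61.5 CPM in HOE1, 127 to 131 CPM in HOE8 and 88.2 to 91.5 CPM in WT, and was called lower in HOE1 (−0.59, adjusted p = 1.8e-06) and higher in HOE8 (0.52, adjusted p = 2.8e-06).

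TT8, GL3 and EGL3 dimerise and join MYB and WD40 proteins to switch on anthocyanin and proanthocyanidin genes, and GL3 and EGL3 also act in leaf hairs. Of 6 genes of this group 5 were tested, with 2 higher and 3 lower in HOE1 than in WT and 1 higher and 4 lower in HOE8. Manes.01G208400 (chromosome 1, 29991763 to 29997335), matching TT8, had 0.212, 0.197 and 0.129 CPM in HOE1, 1.44, 2.48 and 2.27 CPM in HOE8, and 8.23, 9.57 and 10.6 CPM in WT. The groups were fully separated, with HOE1 at about the worth of 3 reads. It was called lower in HOE1 (−5.67 ± 0.282, adjusted p = 3e-08) and in HOE8 (−2.19 ± 0.188, adjusted p = 1.1e-06). HOE8 was also higher than HOE1 (3.47 ± 0.362, adjusted p = 7.7e-06).

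The 3 tested GL3 matches had 3 patterns. Manes.02G019400 (chromosome 2, 1583801 to 1588095) had 64.4, 70.8 and 67.3 CPM in HOE1, 64.3, 71.3 and 70.6 CPM in HOE8, and a mean of 209 ± 7.33 CPM in WT (SD, n = 3), lower in HOE1 (−1.63 ± 0.061, adjusted p = 3.5e-09) and HOE8 (−1.61 ± 0.061, adjusted p = 1.2e-09). Manes.01G257200 (chromosome 1, 33163045 to 33166350) had 24.4, 25.6 and 23.5 CPM in HOE1, 1.82, 2.33 and 1.83 CPM in HOE8, and 16.1, 17.9 and 19.4 CPM in WT. It was called higher in HOE1 (0.46 ± 0.095, adjusted p = 0.0015) and lower in HOE8 (−3.16 ± 0.126, adjusted p = 1.8e-09), and no 2 groups overlapped. Manes.01G059300 had 38.3 to 40.9 CPM in HOE1, 22.4 to 23.3 in HOE8 and 44.5 to 53.9 in WT, and was called lower in HOE1 (−0.33 ± 0.072, adjusted p = 0.002) and HOE8 (−1.11 ± 0.074, adjusted p = 1.3e-07). The EGL3 match Manes.05G034700 (chromosome 5, 2532741 to 2536191) was the only tested gene of the group higher in both lines, at 198, 198 and 195 CPM in HOE1, 164, 155 and 161 CPM in HOE8 and 121, 122 and 128 CPM in WT (0.67 ± 0.048, adjusted p = 4.9e-07 in HOE1; 0.38 ± 0.048, adjusted p = 3.2e-05 in HOE8).

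Genes that work beside or below TT8 in Arabidopsis were read from a list of late flavonoid enzymes and partners. Of 9 tested, 1 was higher and 4 lower in HOE1, and none was higher and 7 lower in HOE8. The lower share was 44.4% in HOE1 and 77.8% in HOE8, beside 32.7% and 38.2% of all genes. No gene of that list was higher in HOE8 at an unadjusted p below 0.05 in edgeR, or by DESeq2, and without HOE8 library 1 the count of higher genes in HOE1 was 2. Manes.18G022300, matching dihydroflavonol reductase (DFR), had 3.25, 3.08 and 3.62 CPM in HOE1, 3.03, 3.02 and 2.27 CPM in HOE8, and 85.1, 93.7 and 88 CPM in WT (−4.74, adjusted p = 1.2e-10 in HOE1; −5.00, adjusted p = 1.2e-11 in HOE8). Manes.01G070200, matching LDOX, the next enzyme of the pathway, averaged 0.494 CPM in HOE1, 0.659 in HOE8 and 19.5 in WT. Manes.14G121400, matching the MYB partner TT2, was an exception in HOE1, with means of 228 CPM in HOE1, 21.9 in HOE8 and 58.4 in WT.

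**Figure D3:**
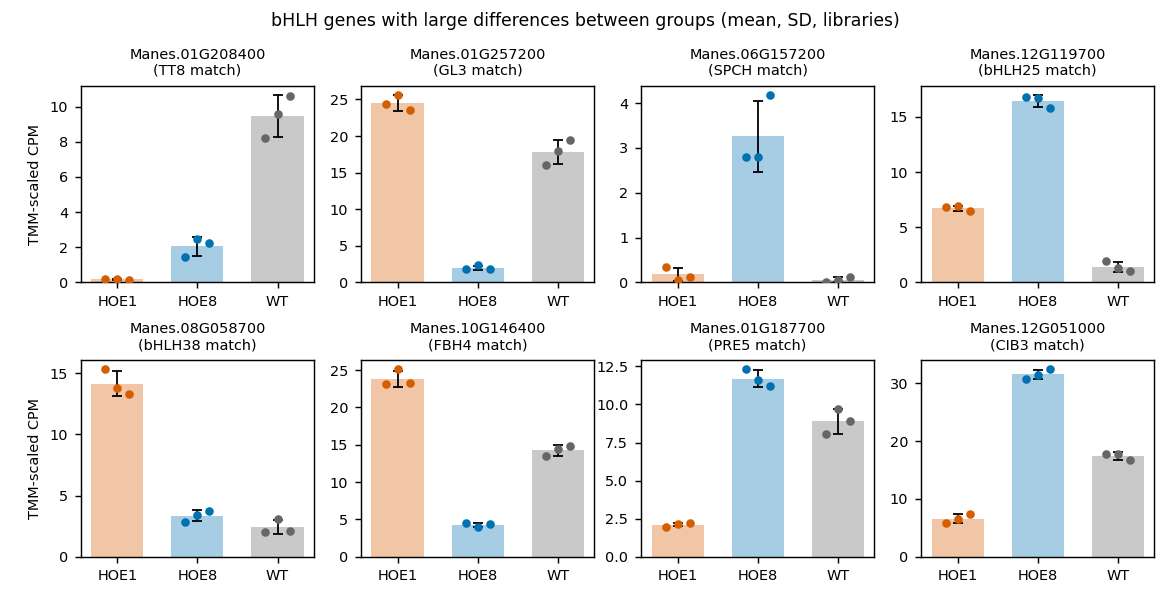
TMM-scaled CPM of 8 bHLH genes with large differences between groups, in HOE1, HOE8 and WT; bars are means, error bars SD and points the 3 libraries of each group, on linear axes from 0 that differ between panels. The TT8 match is highest in WT, the SPCH and bHLH25 matches are highest in HOE8, and the GL3, bHLH38 and FBH4 matches shown are highest in HOE1.

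SPCH, MUTE and FAMA take a leaf epidermal cell in turn into the stomatal lineage, through the guard mother cell and into guard cells, each in a dimer with ICE1 or its relative. Of 9 genes of this group 7 were tested: 2 were higher and 3 lower in HOE1 than in WT, and 4 were higher and 1 lower in HOE8. Without WT library 1 the count of higher genes in HOE1 was 1, and without HOE8 library 2 the count of lower genes in HOE8 was 2. Manes.06G157200 (chromosome 6, 25916346 to 25918116), matching SPCH, which starts the lineage, had 0.353, 0.0656 and 0.129 CPM in HOE1, 2.8, 2.79 and 4.18 CPM in HOE8, and 0, 0.0647 and 0.117 CPM in WT. HOE8 lay above every other library, whereas HOE1 and WT were at the level of single reads. The sums were 8, 130 and 3 reads, so that the HOE8 ratio to WT was 51.3 (95% counting interval 17.2 to 252), and the HOE1 ratio of 2.8 (0.671 to 16.4) did not exclude equality. The fitted test called the gene in HOE8 (adjusted p = 2.4e-06) and not in HOE1 (adjusted p = 0.22). The other SPCH match, Manes.14G018700, had 0.141, 0.0656 and 0.0647 CPM in HOE1, 0.756, 0.62 and 0.954 CPM in HOE8, and 0.48, 0.712 and 0.411 CPM in WT. Its sums were 4 reads in HOE1, 31 in HOE8 and 25 in WT, and it was called lower in HOE1 (−2.47 ± 0.526, adjusted p = 0.0017) and not called in HOE8 (0.55 ± 0.34, adjusted p = 0.19).

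The FAMA matches differed from each other. Manes.15G052900 had 44.9, 41.6 and 38.4 CPM in HOE1, 53.9, 48.6 and 50.1 CPM in HOE8 and 23, 22.7 and 25.2 CPM in WT, higher in HOE1 (0.81 ± 0.076, adjusted p = 3.8e-06) and HOE8 (1.103 ± 0.076, adjusted p = 1.7e-07). Manes.03G148500 had 23.8 to 24.7 CPM in HOE1, 16.3 to 20.3 in HOE8 and 19.1 to 21 in WT, and its call in HOE1 (0.27 ± 0.087, adjusted p = 0.018) was lost with scaling by library totals and without WT library 1. Among the ICE1 matches, Manes.14G045600 had 19.3, 20.5 and 19.2 CPM in HOE1, 40.8, 44 and 44.4 CPM in HOE8 and 25.8, 28.5 and 26.1 CPM in WT (−0.44 ± 0.069, adjusted p = 0.00019 in HOE1; 0.68 ± 0.067, adjusted p = 3.3e-06 in HOE8). Manes.06G125900 was instead lowest in HOE8, with 24.2 to 25.3 CPM in HOE1, 9.38 to 11.3 in HOE8 and 28.3 to 34 in WT (−1.57 ± 0.094 in HOE8, adjusted p = 5.4e-08).

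Other genes of the stomatal lineage were read from a signalling list. Of 12 tested, 3 were higher and 4 lower in HOE1, and 7 were higher and 4 lower in HOE8. The 58.3% called in HOE1 lay below the 64.4% of all genes, and the 91.7% called in HOE8 lay above 71.9%. Manes.11G057100, matching TMM, a receptor-like protein of the lineage, had 0.141, 0.197 and 0.129 CPM in HOE1, 3.03, 3.26 and 3.74 CPM in HOE8 and 0.48, 0.453 and 0.646 CPM in WT (−1.71, adjusted p = 0.0036 in HOE1; 2.64, adjusted p = 1.1e-06 in HOE8). The summed CPM of 7 guard cell lineage markers, TMM among them, was 29 to 31 in HOE1, 47.1 to 51 in HOE8 and 34.5 to 38.2 in WT. Of its 4 tested genes, 1 was higher and 3 lower in HOE1 and 3 were higher and 1 lower in HOE8, and the EPF2 match had 0 reads in HOE1. The part of these markers in the stomatal result was not tested.

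The iron factors form a chain in Arabidopsis: bHLH104, ILR3 and bHLH121 act upstream, bHLH38 and its kin are induced in shortage and join FIT, and PYE holds back other iron genes. All 11 genes were tested, with 5 higher and 1 lower in HOE1 than in WT and 2 higher and 6 lower in HOE8. The 5 higher in HOE1 became 2 without HOE1 library 1 or WT library 1 or 3, and 3 without HOE1 library 2 or 3 or WT library 2. The 1 lower in HOE1 became 2 without HOE1 library 2, HOE8 library 1 or WT library 3. Of the 2 higher in HOE8, 1 was left without any single HOE1 library, HOE8 library 2 or 3, or WT library 1 or 3. Manes.08G058700 (chromosome 8, 6499816 to 6504678), matching bHLH38, had 15.3, 13.8 and 13.3 CPM in HOE1, 2.87, 3.41 and 3.74 CPM in HOE8 and 2.06, 3.11 and 2.11 CPM in WT. HOE1 stood clear of the rest (2.54 ± 0.162 against WT, adjusted p = 2e-07), while HOE8 and WT overlapped and the HOE8 call (0.46 ± 0.188, adjusted p = 0.045) was lost under 12 alternatives: DESeq2, library totals, no filter, the replicate block, the fit of the 2 groups and each of those 7 omissions.

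The upstream ILR3 matches were lower in HOE8 in 3 of 4 cases. Manes.15G077000 (chromosome 15), which overlaps Manes.15G077100, had 77.7, 84.8 and 78.6 CPM in HOE1, 65.6, 64.7 and 64.1 CPM in HOE8 and 93.3, 88.8 and 83.7 CPM in WT. It was called lower in HOE8 (−0.45 ± 0.058, adjusted p = 3.2e-05) and not called in HOE1 (−0.14 ± 0.057, adjusted p = 0.052). The HOE1 difference was called with library totals, at a mean of at least 1 CPM, in the fit of the 2 groups, and without HOE1 library 2, HOE8 library 1 or WT library 3. The second, Manes.03G120800, was lower in HOE8 too (−0.43 ± 0.083, adjusted p = 0.00074). The call of Manes.03G122100 there (−0.36 ± 0.127, adjusted p = 0.026) was lost in the fit of the 2 groups and without HOE8 library 2 or 3 or WT library 2 or 3. Manes.16G017300 was the exception, with 13 to 15.9 CPM in HOE1, 21.3 to 24.8 in HOE8 and 11.7 to 12.7 in WT (0.91 ± 0.098 in HOE8, adjusted p = 8e-06), and it overlaps Manes.16G017400. Its call in HOE1 (0.26 ± 0.1, adjusted p = 0.038) was lost with DESeq2, with library totals, and without HOE1 library 1 or 2 or WT library 1 or 3. The PYE match Manes.14G077100 was scattered in HOE8, at 30.8, 9.93 and 22.7 CPM, against 30.8, 39.3 and 34 CPM in WT, and its call there (−0.72 ± 0.282, adjusted p = 0.04) was lost with DESeq2, in the fit of the 2 groups and without any single HOE1 library, HOE8 library 3, or WT library 2 or 3. Its log2 fold change was −0.38 without HOE8 library 2 and −1.08 without HOE8 library 1.

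Of 9 tested genes of iron uptake and storage, 5 were higher and 3 lower in HOE1, and 3 were higher and 4 lower in HOE8. Manes.08G095800, matching the iron store ferritin FER4, had 391, 390 and 391 CPM in HOE1, 116, 95.5 and 90.6 CPM in HOE8 and 281, 298 and 287 CPM in WT (0.43, adjusted p = 0.00056 in HOE1; −1.52, adjusted p = 1.8e-08 in HOE8). Manes.01G254300, matching the ferric reductase FRO2, had the opposite order, with means of 89.2 CPM in HOE1, 242 in HOE8 and 105 in WT.

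FBH proteins activate the flowering gene CONSTANS, and the AKS proteins, of the same clade, act on potassium channels of guard cells. Of 10 such genes 9 were tested: 6 were higher and 2 lower in HOE1 than in WT, while 2 were higher and 5 lower in HOE8, and 7 were lower in HOE8 than in HOE1. Manes.06G167700 (chromosome 6, 26876487 to 26879335), matching FBH3, had 161, 165 and 159 CPM in HOE1, 81.8, 77.3 and 69.1 CPM in HOE8 and 66.4, 64.1 and 63.2 CPM in WT (1.32 ± 0.064 in HOE1, adjusted p = 2.4e-08). Its small difference in HOE8 (0.24 ± 0.064, adjusted p = 0.0061) was not called with scaling by library totals. Manes.10G146400 (chromosome 10, 25704695 to 25707914), matching FBH4, had 23.1, 25.1 and 23.3 CPM in HOE1, 4.54, 3.96 and 4.33 CPM in HOE8 and 13.5, 14.4 and 14.9 CPM in WT. It was called higher in HOE1 (0.74 ± 0.083, adjusted p = 1.7e-05) and lower in HOE8 (−1.74 ± 0.097, adjusted p = 2.9e-08), with no overlap.

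A pair of further FBH4 matches, Manes.09G031000 and Manes.07G003800, had that same order, at 48 to 52.8 and 23.2 to 24.9 CPM in HOE1, 17.3 to 19.7 and 12 to 15.7 CPM in HOE8, and 33.8 to 37 and 17.3 to 17.9 CPM in WT. The last FBH4 match did not: Manes.08G047200 had 41.2 to 44.9 CPM in HOE1, 32.5 to 34.2 in HOE8 and 62 to 65.6 in WT, lower in HOE1 (−0.56 ± 0.056, adjusted p = 6.1e-06) and HOE8 (−0.94 ± 0.057, adjusted p = 5.7e-08). Manes.02G197900, matching FBH1, was higher in both, with 54.3 to 56.3, 84 to 88.4 and 32.3 to 39.1 CPM in HOE1, HOE8 and WT.

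The atypical HLH proteins act on growth by binding other bHLH factors: PRE5 and its kin favour cell elongation, whereas IBH1 and AIF4 hold it back. Of 9 genes 8 were tested, with 5 higher and 2 lower in HOE1 than in WT and 6 higher and none lower in HOE8, where edgeR at an unadjusted p below 0.05 and DESeq2 also gave 0 lower. The 5 higher in HOE1 became 2 without HOE1 library 1 or 3 or WT library 1, and 3 without HOE1 library 2 or WT library 2 or 3. Manes.13G054600, matching the growth inhibitor IBH1, had 41, 39.5 and 42.5 CPM in HOE1, 116, 95.5 and 97.5 CPM in HOE8 and 35.5, 35.5 and 36.6 CPM in WT (1.52 ± 0.077 in HOE8, adjusted p = 1.2e-08). In HOE1 the difference (0.19 ± 0.077, adjusted p = 0.045) was not called by DESeq2, with library totals or after leaving out any single HOE1 or WT library. Manes.08G110500, matching AIF4, was higher in HOE1 (1.07 ± 0.095, adjusted p = 2.8e-06) and HOE8 (1.49 ± 0.095, adjusted p = 9.2e-08), at 23.5 to 28.1, 32.9 to 38.6 and 11.7 to 13.2 CPM in HOE1, HOE8 and WT.

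Growth-promoting PRE5 matches differed between the lines as well. Manes.01G187700 (chromosome 1, 28508881 to 28510120) had 1.98, 2.16 and 2.2 CPM in HOE1, 12.3, 11.6 and 11.2 CPM in HOE8 and 8.03, 9.7 and 8.92 CPM in WT. It was called lower in HOE1 (−2.07 ± 0.126, adjusted p = 1.3e-07) and higher in HOE8 (0.40 ± 0.104, adjusted p = 0.0053), and the groups did not overlap. Manes.15G177200 was higher in HOE1 (0.97 ± 0.263, adjusted p = 0.0076) and HOE8 (2.15 ± 0.236, adjusted p = 9.2e-06), from low levels of 1.62 to 2.2 CPM in HOE1, 4.03 to 4.54 in HOE8 and 0.549 to 1.16 in WT. Manes.05G099100, also matching PRE5, was higher in HOE8 (1.96 ± 0.307, adjusted p = 0.00015), with 0.721 to 1.34 CPM in HOE1, 1.71 to 2.34 in HOE8 and 0.343 to 0.646 in WT. Its call in HOE1 (0.94 ± 0.342, adjusted p = 0.032) was lost with DESeq2 and without HOE1 library 1 or 3 or WT library 1 or 2.

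BIM1 partners the brassinosteroid factor BES1 and the CIB proteins answer blue light through cryptochrome. Of 9 genes of the growth group 7 were tested: 1 was higher and 3 lower in HOE1 than in WT, and 3 were higher and none lower in HOE8, with 0 lower also at an unadjusted p below 0.05 in edgeR and by DESeq2. Manes.12G051000 (chromosome 12, 4464613 to 4467317), matching CIB3, had 5.79, 6.56 and 7.37 CPM in HOE1, 30.8, 31.4 and 32.4 CPM in HOE8 and 17.8, 17.8 and 16.7 CPM in WT, lower in HOE1 (−1.40 ± 0.094, adjusted p = 3e-07) and higher in HOE8 (0.86 ± 0.085, adjusted p = 4.1e-06). The other CIB3 match named by level, Manes.05G198200, was not called in either line (−0.01 ± 0.07, adjusted p = 0.88 in HOE1; −0.04 ± 0.07, adjusted p = 0.6 in HOE8). Of 9 tested DELLA and brassinosteroid genes, 1 was higher and 4 lower in HOE1, and 2 were higher and 4 lower in HOE8.

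T5L1 and its relatives, with LHW, drive the divisions that widen vascular tissue. Of 7 genes of the vascular group 6 were tested, with 2 higher and 4 lower in HOE1 than in WT and 2 higher and 2 lower in HOE8, where 1 was higher without HOE8 library 3 or WT library 3. Manes.17G055000, a T5L1 match, had 5.44, 5.38 and 5.3 CPM in HOE1, 4.69, 3.64 and 4.69 CPM in HOE8 and 17.1, 16.3 and 17.4 CPM in WT, and the WT libraries lay above all others (−1.65 ± 0.108, adjusted p = 2.3e-07 in HOE1; −1.96 ± 0.112, adjusted p = 3.7e-08 in HOE8). Manes.06G072600, another T5L1 match, was the reverse, with 4.4 to 5.51 CPM in HOE1, 8.85 to 11.4 in HOE8 and 1.75 to 3.16 in WT (1.04 ± 0.217, adjusted p = 0.0015 in HOE1; 2.06 ± 0.205, adjusted p = 4.1e-06 in HOE8). The summed CPM of 8 xylem markers was 15.1 to 17.9 in HOE1, 44.5 to 47.2 in HOE8 and 23.9 to 24.6 in WT, and that of 11 phloem markers 233 to 246, 133 to 136 and 310 to 327. Of 5 tested xylem markers, 3 were lower in HOE1 than in WT and 5 higher in HOE8. Of 9 tested phloem markers, 1 was higher and 3 lower in HOE1 than in WT, and 5 were higher and 2 lower in HOE8. The low phloem sum in HOE8 thus did not follow most of its called genes. The part of these markers in the vascular result was not tested.

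SACL3, whose translation in Arabidopsis is set by the polyamine thermospermine, binds LHW and restrains xylem. Its match Manes.15G119000 had 40.7, 40.1 and 39.5 CPM in HOE1, 74.3, 56.5 and 56 CPM in HOE8 and 46.8, 43.6 and 44 CPM in WT, called in HOE8 (0.48 ± 0.098, adjusted p = 0.0012) and not in HOE1 (−0.16 ± 0.099, adjusted p = 0.18). The HOE1 difference was called in the fit of the 2 groups and without HOE8 library 1. The second match, Manes.17G067600, had 40, 40.7 and 39.1 CPM in HOE1, 80.2, 66.7 and 63.3 CPM in HOE8 and 53.1, 4.14 and 53.4 CPM in WT. WT library 2 was far below the other libraries, and no comparison with WT was called (0.11 ± 0.574, adjusted p = 0.88 in HOE1; 0.93 ± 0.571, adjusted p = 0.17 in HOE8). Without WT library 2 the gene was called lower in HOE1 (−0.42, adjusted p = 0.0036) and higher in HOE8 (0.39, adjusted p = 0.0042).

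The small groups added single genes with large differences. Of the bHLH18 to bHLH25 clade, whose Arabidopsis members target the iron factor FIT for breakdown, 2 of 5 were tested, and both match bHLH25. Manes.12G119700 (chromosome 12, 27233192 to 27235487) had 6.85, 6.89 and 6.47 CPM in HOE1, 16.8, 16.7 and 15.8 CPM in HOE8 and 1.92, 1.29 and 1.06 CPM in WT, fully separated and higher in HOE1 (2.25 ± 0.173, adjusted p = 8.4e-07) and HOE8 (3.54 ± 0.163, adjusted p = 5.8e-09). Manes.13G105800, at 1.55 to 1.7, 0.293 to 0.388 and 0.763 to 0.906 CPM in HOE1, HOE8 and WT, was higher in HOE1 (0.99 ± 0.211, adjusted p = 0.0018) and lower in HOE8 (−1.32 ± 0.3, adjusted p = 0.0035).

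Of 5 genes matching the carpel regulators of the fruit group 2 were tested; 1 was higher in HOE1, or 2 without HOE8 library 1. Manes.12G103400, matching HEC1, had 2.9 to 3.67, 6.51 to 8.02 and 2.33 to 2.61 CPM in HOE1, HOE8 and WT and was called in HOE8 (1.53 ± 0.153, adjusted p = 4.2e-06). The 3 UNE12 matches were all higher in HOE8, and 1 of them, Manes.01G201900, in HOE1 (0.39 ± 0.074, adjusted p = 0.00083). Of 9 genes matching anther and endosperm factors, only 2 had enough reads to test; Manes.05G175600, matching the endosperm factor ZOU, was called lower in HOE1 (−1.05 ± 0.298, adjusted p = 0.0094), but not by DESeq2.

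A further 61 members belonged to none of these groups, of which 43 were tested. In HOE1 16 were higher and 11 lower than in WT, and in HOE8 24 were higher and 12 lower. The bHLH96 matches held large differences in both directions. Manes.15G186300 had 5.15, 5.31 and 4.33 CPM in HOE1, 15.7, 16.1 and 13.8 CPM in HOE8 and 2.19, 2.01 and 2.11 CPM in WT (1.23 ± 0.141, adjusted p = 2e-05 in HOE1; 2.85 ± 0.13, adjusted p = 5.4e-09 in HOE8). Manes.12G129500 had 1.77, 2.69 and 1.81 CPM in HOE1, 1.59, 1.86 and 2.2 CPM in HOE8 and 12.3, 11.1 and 12.1 CPM in WT (−2.49 ± 0.167, adjusted p = 2.8e-07 in HOE1; −2.64 ± 0.173, adjusted p = 1.1e-07 in HOE8). Manes.18G063000 was likewise lower in both lines, at 3.94 to 4.66, 6.66 to 7.76 and 16.9 to 19.6 CPM in HOE1, HOE8 and WT.

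Other named genes of that remainder included stress factors. Manes.16G015400, matching bHLH112, a factor of salt and drought responses, was higher in HOE1 (1.22 ± 0.089, adjusted p = 5.8e-07) and HOE8 (1.09 ± 0.09, adjusted p = 8e-07), with 26.3 to 29.6, 24.9 to 26.3 and 11.1 to 13.6 CPM in HOE1, HOE8 and WT. Manes.16G101000, matching the undescribed AT5G56960, had 11.4, 13 and 14.5 CPM in HOE1, 1.29, 1.16 and 1.39 CPM in HOE8 and 8.3, 7.83 and 7.57 CPM in WT, higher in HOE1 (0.72 ± 0.114, adjusted p = 0.00023) and lower in HOE8 (−2.61 ± 0.155, adjusted p = 5e-08). Manes.03G169100, matching bHLH92, was picked out after its values were seen: it had 37 reads in HOE1, 0 in HOE8 and 27 in WT, at least 7.6-fold lower in HOE8 than in WT on a floor of 3 reads over the group.

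HOE8 and HOE1 were also compared directly. Among the role groups, 7 of 8 tested atypical HLH genes, 7 of 10 MYC and JAM genes and 5 of 7 of both the stomatal and the BEE and CIB genes were higher in HOE8 than in HOE1, beside 32.7% of all genes. Conversely 8 of 11 iron genes and 7 of 9 FBH and AKS genes were lower in HOE8, beside 33.8% of all genes. In all, 14 members were called in opposite directions in HOE1 and HOE8 against the shared WT libraries, and the widest gap was that of the GL3 match Manes.01G257200 (−3.62 ± 0.124 in HOE8 against HOE1, adjusted p = 7.9e-10). Against WT, 64.4% of all genes were called in HOE1 and 71.9% in HOE8. The share of all genes called in opposite directions was not counted, so the 14 are a description only.

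Members with the same Arabidopsis match were then set side by side. There were 42 sets with 2 or more tested members, holding 108 members, and 26 of these sets were pairs. All 26 pairs lay on different chromosomes, 8 of them on chromosomes 6 and 14. In HOE1 against WT 3 pairs were called in opposite directions and 7 in the same direction, and in HOE8 against WT 4 and 9. In HOE8 against HOE1 these counts were 8 and 9. The median gap between the log2 fold changes of a pair was 0.56 in HOE1 against WT, 0.56 in HOE8 against WT and 0.86 in HOE8 against HOE1. The gap was over 1 in 9, 9 and 11 pairs. No such counts or gaps were drawn up for pairs of unrelated genes. These numbers therefore do not show that copies differ more, or less, than other genes with the same shares of calls.

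The balance of the copies, given as the share of a pair's summed FPKM, differed between the group means by 70.5 percentage points in the SPCH pair and by 49.8 in the bHLH35 pair. It differed by 34.4 points in the bHLH137, 32.5 in the PIF1, 29.5 in the bHLH25 and 27.3 in the FBH3 pair. The PIF1 match Manes.12G044000 held 62.1% ± 1.97 in HOE1, 88.4% ± 1.42 in HOE8 and 55.9% ± 1.98 in WT (SD, n = 3 each), the rest being that of Manes.13G043000. The FBH3 match Manes.06G167700 held 87.3% ± 1.57 in HOE1, 62.8% ± 0.983 in HOE8 and 60% ± 1.39 in WT, so that here HOE1 stood apart. The bHLH35 match Manes.14G158400 held 87.5% in HOE1, 43% in HOE8 and 92.8% in WT, so that its partner led in HOE8, and it overlaps Manes.14G158500 and Manes.14G158600. The bHLH137 match Manes.14G046300 held 76.2% in HOE1, 53.5% in HOE8 and 87.9% in WT, and the bHLH25 match Manes.12G119700 held 84.6%, 98.5% and 69%. In the SPCH pair the share of Manes.06G157200 was 62.6% ± 11.3 in HOE1 and 80.6% ± 1.69 in HOE8, against 10.1% ± 11.2 in WT, with few reads in HOE1 and WT. The group means of the bHLH79 and BIM1 pairs spanned 2.3 and 3.7 percentage points. The differences in share were not tested beyond the fold changes of each copy, and reads of near-identical copies could be split between them by the counting.

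**Figure D4:**
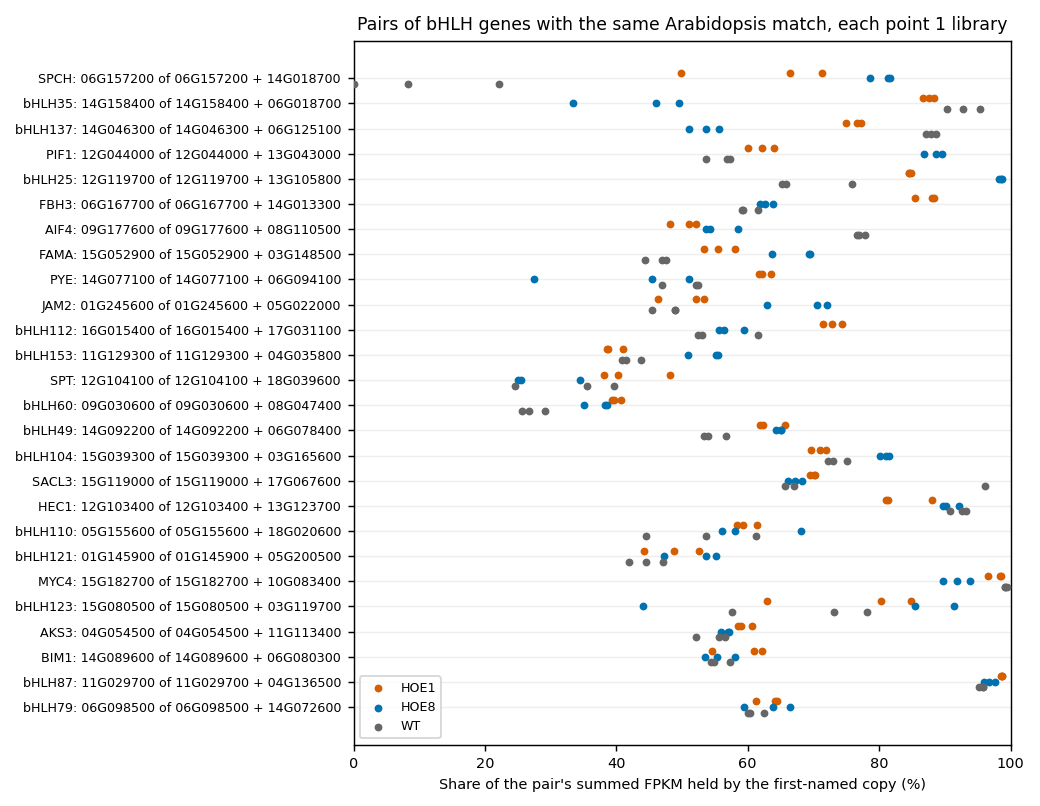
Share (%) of the summed FPKM of each of 26 same-match pairs held by the first-named copy, in each library of HOE1, HOE8 and WT; each point is 1 library and pairs are sorted by the span of the group means. The SPCH, bHLH35, bHLH137 and PIF1 pairs at the top have the widest spans, and the single WT point at the right in the SACL3 pair is WT library 2.

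Members lying next to each other were few. Among 9 neighbouring pairs with at most 1 gene between them, 7 had the same match, and in only 1 pair were both genes tested. That pair was the FBH4 match Manes.08G047200, lower in both lines, and the bHLH60 match Manes.08G047400, which had 68.3 to 72.4 CPM in HOE1, 107 to 114 in HOE8 and 66.7 to 73.4 in WT and was higher in HOE8 (0.65 ± 0.056, adjusted p = 1.1e-06).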

How the data were processed

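Leaf RNA was sequenced in 9 cassava libraries, 3 each of HOE1, HOE8 and WT. For each gene and library, the deposited table held the read count, a whole number, and its FPKM. The submitters' processing notes list HISAT2 2.0.4 and StringTie 1.3.0 without saying what each did. Not given in the sources used here: genome build, annotation version and strand setting. Coordinates, descriptions and Arabidopsis matches are those of the deposited table. The authors' FPKM values, so named per the file headers, were used to compare levels between genes. They also gave the family sums, member levels and shares, and pair shares set out by group. All tests used the counts.

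Counts of all 33033 genes were filtered with filterByExpr at a minimum count of 10, leaving 23434. They were scaled by TMM and tested in 1 edgeR 4.0.16 quasi-likelihood fit of all 9 libraries (limma 3.58.1, R 4.3.3). The two-sided p-values were adjusted by Benjamini and Hochberg's method across the tested genes, with a threshold of 0.05. Standard errors were derived from the log2 fold change and the F statistic. CPM values are TMM-scaled. The common biological coefficient of variation was 12.1%. Totals of 13272047 to 16378389 reads set the precision, and counting intervals at 95% cover counting error only. A floor is 3 reads over a group. The test was first checked on simulated counts.

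The family and its description rule, the role groups, the partner lists and the marker lists were chosen with earlier results of these data known; the rule itself reads descriptions only. Named genes were, per comparison, the 8 higher and 8 lower members with the largest fold change among called genes whose libraries did not overlap between the groups and whose mean was at least 1 CPM. Added to these were the highest 2 of each role group by level and by fold change, the 8 members with the widest gap between the lines among those called in opposite directions, and same-match members called in opposite directions. Values of some genes picked in these ways are not given above, among them Manes.18G059400, matching bHLH107, and Manes.16G038200, matching T5L1. The rest of the PIF group, the second copies of pairs and other genes beyond this rule were chosen after their values were seen. Replicate numbers did not pair libraries across groups. Alternatives were DESeq2 1.42.0, other scalings and filters, 2-group fits, a replicate block, omission of overlapping members, leaving out each library, and, added after seeing the data, a 2-fold minimum and list counts with each library left out. No sequences were used. None of the 170 members matched the separate gene table for the species.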

Additional observations from a re-analysis of the deposited data

Results flagged for a closer look

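The 14 genes below were called in opposite directions in HOE1 and HOE8 against WT. The difference between the lines follows from those calls in the same fit, so its passing the edgeR test adds no support. Each value is the log2 fold change of HOE8 against HOE1, so a negative one means lower in HOE8. The share of all tested genes called in opposite directions was not counted.

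Genes lower in HOE8 than in HOE1 included 3 FBH4 matches, Manes.10G146400 (−2.476), Manes.09G031000 (−1.450) and Manes.07G003800 (−0.815). The pigment and leaf hair factor GL3 was represented by Manes.01G257200 (−3.617), which had the widest gap. The others were Manes.16G101000, matching AT5G56960 (−3.330), Manes.13G105800, matching bHLH25 (−2.304), Manes.13G043000, matching PIF1 (−0.837), and Manes.03G120800, matching the iron factor ILR3 (−0.641). The HOE1 call of the ILR3 match was lost with library totals, with a replicate block and without any single HOE1 or WT library.

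Genes higher in HOE8 than in HOE1 were Manes.01G187700, matching the growth factor PRE5 (2.463), Manes.12G051000, matching CIB3 (2.259), and Manes.01G245600, matching JAM2 (1.916). They also included Manes.11G129300, matching bHLH153 (1.622), Manes.14G045600, matching ICE1 (1.128), and Manes.S066300, matching bHLH131 (0.687). The clock genes LHY and GI separated HOE8 from both other groups, and their part in these differences was not tested.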

How the results depend on the processing

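Counts of higher and lower bHLH members stayed within 1.5 times the reported counts in each comparison under every alternative run, except that a 2-fold minimum, chosen after seeing the data, left 17 higher and 15 lower in HOE1 against WT, 36 and 20 in HOE8 against WT, and 31 and 14 in HOE8 against HOE1. The median log2 fold change in HOE1 against WT was 0.111 with library totals, and 0.150 to 0.285 when single libraries were left out. In HOE8 against WT it was 0.495 with DESeq2, 0.433 with RLE scaling, 0.299 with library totals, 0.440 at a mean of at least 1 CPM, 0.433 in the fit of the 2 groups and 0.431 without overlapping members, and 0.360 to 0.433 when single libraries were left out. In HOE8 against HOE1 it was 0.278 to 0.432 when single libraries were left out, lowest without HOE8 library 1. Library totals put the median of all genes at −0.087, −0.146 and −0.024 in the 3 comparisons, in the order above. The replicate numbers did not pair libraries (correlations of same-numbered libraries from −0.033 to 0.037), and with a replicate block 51 and 33, 63 and 33, and 63 and 35 members were higher and lower. Of 3576 alternative values for 75 named genes, 3438 kept direction and side of the threshold, 82 lost a call, 33 gained one and 23 changed sign. Of these 23, 1 was called: the SACL3 match Manes.17G067600 in HOE1 against WT, at −0.416 without WT library 2 and up to 0.485 without another library. The other sign changes were of values not called in either setting. In HOE1 against WT, CIB3 Manes.05G198200 was 0.000 with RLE scaling and −0.041 to 0.023 without single libraries, BIM1 Manes.14G089600 −0.076 with library totals and −0.056 to 0.105, UNE12 Manes.09G153000 −0.040 and −0.032 to 0.177, bHLH96 Manes.09G164100 −0.055 to 0.743, and ILR3 Manes.03G122100 −0.009 with library totals. In HOE8 against WT, AIF4 Manes.09G177600 was −0.054 with library totals and −0.007 to 0.119, FBH3 Manes.14G013300 −0.037 and −0.004 to 0.106, and CIB3 Manes.05G198200 −0.106 to 0.011. In HOE8 against HOE1, bHLH96 Manes.12G129500 was −0.278 to 0.071, GL3 Manes.02G019400 −0.011 to 0.073 and CIB3 Manes.05G198200 −0.092 to 0.024. At this depth, precision was lowest for the 7 tested members with under 10 reads in a group and the 43 not tested.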

Other observations

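A further 38 genes match Arabidopsis bHLH genes of the role groups but carry descriptions outside the rule, and 27 of these were tested. Against WT, 10 were higher and 4 lower in HOE1, and 12 were higher and 4 lower in HOE8. In HOE8 against HOE1, 8 were higher and 10 lower, so the excess of higher calls among members was not seen in these genes there. Of all genes, 32.7% were higher and 33.8% lower in that comparison. The genes named below were picked after their values were seen. Manes.14G083200, matching PIF7, which in Arabidopsis answers shade and warmth, had 333, 337 and 337 CPM in HOE1, 189, 218 and 219 CPM in HOE8, and 66.4, 60.2 and 61.7 CPM in WT. It was called higher in HOE1 (log2 fold change 2.42, adjusted p = 5.5e-10) and in HOE8 (1.74, adjusted p = 1.5e-09). Manes.04G088800, matching the cryptochrome partner CIB1, had 57.7, 61.8 and 63.2 CPM in HOE1, 59.7, 72.7 and 70.1 CPM in HOE8 and 16.2, 16.7 and 14.3 CPM in WT, and the other CIB1 match, Manes.11G086600, was higher in both lines too (1.65, adjusted p = 6.6e-07 in HOE1; 2.57, adjusted p = 6.9e-09 in HOE8).

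Others separated HOE8 from the rest. Manes.14G112400, matching the root hair factor LRL1, had 120, 124 and 124 CPM in HOE1, 28.4, 29.9 and 28.1 CPM in HOE8 and 189, 183 and 173 CPM in WT (−0.57, adjusted p = 3.2e-06 in HOE1; −2.66, adjusted p = 1.3e-11 in HOE8). Manes.02G084300, matching PAR1, an atypical HLH protein that restrains PIF action in shade, had 0.494 to 1.05 CPM in HOE1, 6.09 to 6.36 in HOE8 and 0.47 to 0.776 in WT, and was called in HOE8 (3.33, adjusted p = 1.8e-07) and not in HOE1 (0.37, adjusted p = 0.35).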
